A study of Mus musculus with 18 samples.

Results

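Mitochondria in heart cells are remodelled by fusion, fission and selective removal, and the RNA levels of 10 genes of this machinery were examined in isolated mouse heart cells. The genes were chosen by name and not by a rule on their measured values, but with earlier results of these data known. They were Mfn1, Mfn2 and Opa1 (fusion), Dnm1l and Fis1 (fission), Pink1, Bnip3, Bnip3l and Fundc1 (mitophagy) and Ppargc1a (biogenesis). All 10 were among the 19094 protein-coding genes of the table, and all 10 passed the filter on low counts in every comparison. The study sequenced 18 libraries from the hearts of 6 mice aged 16 months, 3 carrying a Bag3-P209L transgene (labelled Bag3-P209L Tg+, here Tg+) and 3 labelled Bag3-WT. Cardiomyocytes, the contracting muscle cells, gave 12 libraries (rep1 and rep2 of each mouse), and cardiac fibroblasts, the matrix-producing cells, gave 6 (1 per mouse). Counts of rep1 and rep2 were summed, so that each mouse had 1 cardiomyocyte and 1 fibroblast value, and mice are numbered 1 to 3 within a genotype. BAG3 is a co-chaperone that guides damaged proteins to autophagy, and the P209L change is linked to muscle disease. The labels give neither the promoter of the transgene nor the background strain.

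Fusion of the outer mitochondrial membrane depends on the mitofusins MFN1 and MFN2, and fusion of the inner membrane on OPA1, which also shapes the cristae. Fission is carried out by DRP1, the dynamin-related GTPase encoded by Dnm1l, which is recruited to the outer membrane; FIS1 is an outer membrane protein of the fission pathway. In mitophagy the kinase PINK1 collects on damaged mitochondria and activates the ubiquitin ligase Parkin, while BNIP3, BNIP3L (also called NIX) and FUNDC1 are outer membrane receptors that bind LC3-family proteins directly. Ppargc1a encodes a transcriptional coactivator that drives mitochondrial biogenesis and is known for high activity in oxidative muscle.

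Promoter windows are shown because Mfn2, Opa1, Bnip3 and Ppargc1a are the members on whose levels the results below turn and whose windows hold a searched motif. Each is the stretch of at most 250 bases before a RefSeq start site on GRCm38.p6, read on the strand of the gene. Bases that lie inside the annotated gene were removed (13 for Bnip3 and 1 for Ppargc1a). RefSeq windows were found for 9 of the 10 members, and Mfn2 is shown at the most upstream of its 3 start sites. Capitals mark TGACG, the cyclic AMP response half-site, in Mfn2, GCGCATGC, the core of the NRF1 site, in Opa1 (its copies on the 2 strands overlap), ACGTG, the core of the hypoxia response element, in Bnip3 (likewise on both strands), and both ACGTG and TGACG, overlapping on the other strand, in Ppargc1a.
Mfn2 (chr4:147904910-147905159, minus strand): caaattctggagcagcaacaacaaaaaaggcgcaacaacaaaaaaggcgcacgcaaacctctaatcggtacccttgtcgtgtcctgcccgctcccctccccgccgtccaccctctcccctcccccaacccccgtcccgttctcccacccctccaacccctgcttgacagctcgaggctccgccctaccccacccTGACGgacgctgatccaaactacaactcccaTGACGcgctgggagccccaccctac
Opa1 (chr16:29579084-29579333, plus strand): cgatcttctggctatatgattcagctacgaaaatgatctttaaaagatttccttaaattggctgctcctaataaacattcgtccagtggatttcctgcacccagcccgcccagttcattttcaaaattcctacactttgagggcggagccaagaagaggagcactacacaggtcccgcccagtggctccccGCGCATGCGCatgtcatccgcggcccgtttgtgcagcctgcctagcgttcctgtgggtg
Bnip3 (chr7:138909520-138909756, minus strand): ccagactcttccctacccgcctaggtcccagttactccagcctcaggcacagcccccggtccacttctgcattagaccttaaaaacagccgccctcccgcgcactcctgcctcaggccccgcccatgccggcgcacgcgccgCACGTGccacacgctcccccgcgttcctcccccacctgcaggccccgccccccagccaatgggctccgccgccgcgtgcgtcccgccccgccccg
Ppargc1a (chr5:51567727-51567975, minus strand): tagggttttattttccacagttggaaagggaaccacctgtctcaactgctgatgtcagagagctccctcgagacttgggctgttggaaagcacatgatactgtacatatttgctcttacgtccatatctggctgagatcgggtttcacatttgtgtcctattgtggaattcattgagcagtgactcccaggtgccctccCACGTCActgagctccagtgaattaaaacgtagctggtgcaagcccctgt

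Searched on both strands over 32851 windows of 250 bases (27025 genes), ACGTG occurred in 16.6% of windows and 18.5% of genes. Among the members it was found in Mfn2 (at a start site not shown), Bnip3 and Ppargc1a. GCGCATGC occurred in 2.26% of windows, in 2.56% of genes and in 1 member, Opa1. TGACG occurred in 17.8% of windows, in 19.8% of genes and, among the members, in Mfn1, Mfn2 and Ppargc1a. The full cyclic AMP response element TGACGTCA occurred in 1.55% of windows and 1.77% of genes. For the estrogen-related receptor half-site AAGGTCA the shares were 4.08% and 4.70%. Both motifs were found in 0 of the 9 matched members. A match is a run of letters and not a measured binding site.

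The preparations were checked against marker genes fixed for each cell type, with levels in CPM (counts scaled to the TMM-normalised library size) summed over a list. All 10 cardiomyocyte markers (such as Myh6 and Tnnt2) were higher in cardiomyocyte preparations, with summed levels of 1039 to 2728 CPM against 420 to 1026 CPM in fibroblast preparations. Of 9 fibroblast markers, 1 was higher in the fibroblast preparations and 2 were lower, and their summed level was 664 to 2123 CPM there against 1942 to 7080 CPM in cardiomyocyte preparations, so these markers go against the fibroblast label. All 11 macrophage and myeloid markers were higher in fibroblast preparations (2066 to 6453 CPM against 402 to 1424 CPM), and all 6 markers of smooth muscle and pericytes stood higher in cardiomyocyte preparations (259 to 1674 CPM against 89.5 to 660 CPM). Mesothelial markers were higher in cardiomyocyte preparations for 4 of 5 genes and lower for 1, and endothelial markers were lower for 2 of 6. Of the markers, 1 was at 0 in 1 of the 12 summed columns: the mesothelial marker Krt19 in cardiomyocytes of Tg+ mouse 3, where the mesothelial markers summed to 13.1 CPM. The part of these cell mixtures in the results below was not tested, and in bulk RNA fewer cells of a type and less RNA per cell cannot be told apart. Counts per mouse outside the 13 mitochondrial genome genes ran from 2.26M to 7.79M (M, mega) in cardiomyocytes and from 11.3M to 15.8M in fibroblasts, and mitochondrial genome genes took 51.7% to 85.5% and 16.7% to 74.2% of all counts.

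With TMM scaling, most of the mitochondrial dynamics genes were higher in cardiomyocyte than in fibroblast preparations of the same mice, while with library sizes alone 6 of the 10 estimates were below 0. Past the test, 7 members rose: Mfn2 (2.14-fold), Bnip3 (2.07-fold), Dnm1l (1.86-fold), Bnip3l (1.82-fold), Opa1 (1.59-fold), Fis1 (1.48-fold) and Ppargc1a (4.19-fold). These 7 of 10 compare with 44.6% of the 13891 genes tested that passed in either direction, 19.7% higher and 24.9% lower. Mfn1, Fundc1 and Pink1 had estimates above 0 that did not pass, and 0 members were lower. The median log2 fold change of the 10 was 0.77, against −0.04 for all genes tested. Summed over the members, their counts made up 0.10% to 0.124% of the counts outside the mitochondrial genome in cardiomyocytes and 0.0460% to 0.0681% in fibroblasts, ranges that do not overlap. Each test used edgeR's quasi-likelihood fit with the mouse as block, and adjusted p-values are Benjamini-Hochberg values over all genes tested.

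**Figure D1:**
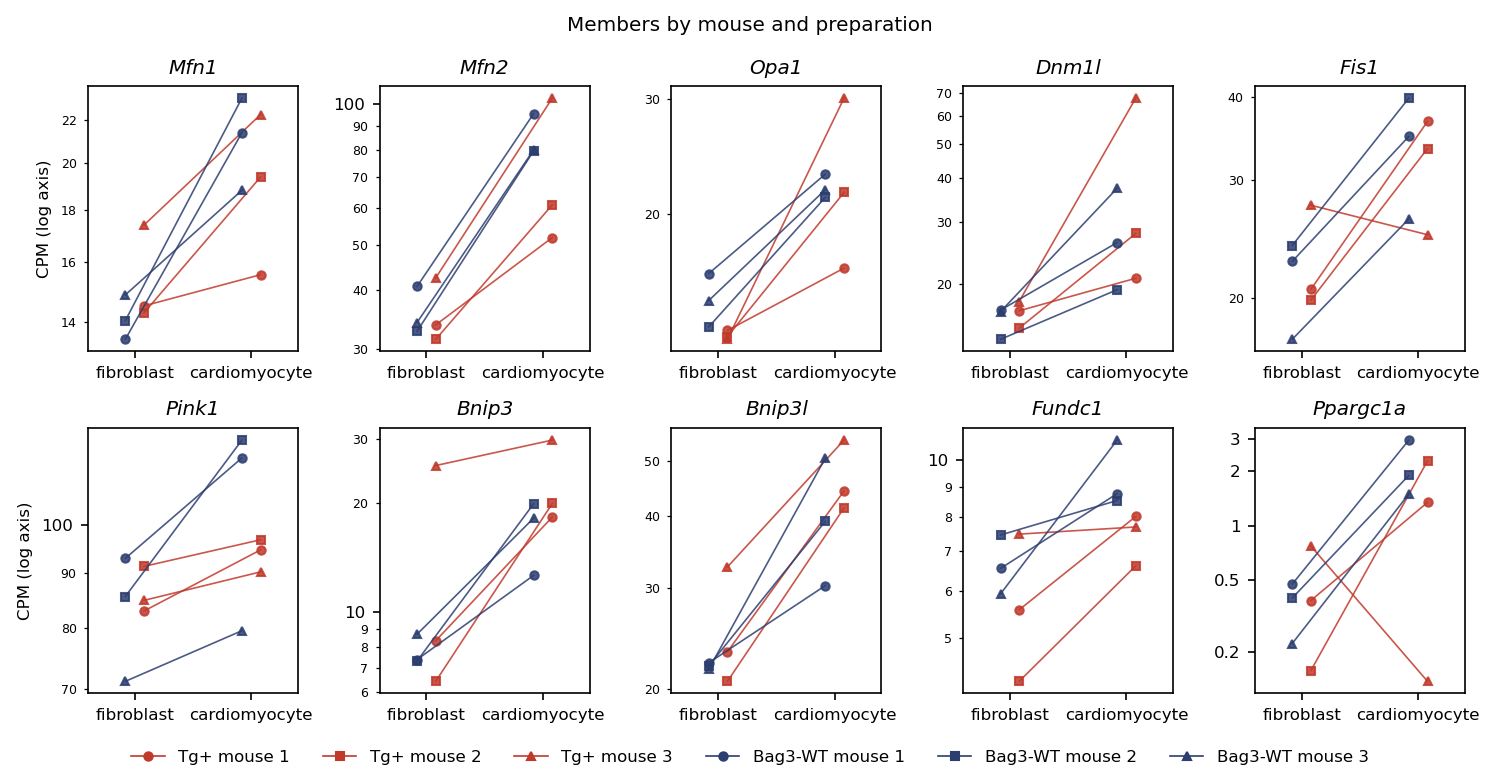
Level of each member (CPM, log axis, a separate scale for each gene) in the fibroblast and cardiomyocyte preparation of every mouse; a line joins the preparations of 1 mouse, red for Tg+ and blue for Bag3-WT. With this TMM scaling, lines rise for all 6 mice except for Fis1 and Ppargc1a, where the line of Tg+ mouse 3 falls, and the fibroblast value of Bnip3 in Tg+ mouse 3 (25.4 CPM) stands above the other fibroblast values (6.43 to 8.68 CPM).

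Mfn2 (chr4:147873599-147904704, minus strand; gene positions are those of GENCODE M21 on GRCm38) had the largest fold of the fusion genes. Its cardiomyocyte levels were 51.9, 60.9 and 103 CPM in Tg+ mice 1, 2 and 3 and 95.5, 79.5 and 79.9 CPM in Bag3-WT mice 1, 2 and 3. In fibroblast preparations the same mice had 33.7, 31.4 and 42.5 CPM and 40.8, 32.7 and 34.1 CPM. Every cardiomyocyte value of Mfn2 lay above every fibroblast value, with Tg+ mice 1 and 2 the lowest cardiomyocyte samples. Tg+ mouse 1 was also lowest for Mfn1 and Opa1 and for the cardiomyocyte markers (1039 CPM, against 2085 to 2728 CPM in the other 5); the part of this in the members' values was not tested. The log2 fold change was 1.10 (SE 0.17, 95% interval 0.72 to 1.48, edgeR adjusted p = 0.00050), and the difference was positive in 6 of 6 mice. Such a separation in CPM, with all cardiomyocyte values above all fibroblast values, was found for Mfn2, Opa1 and Dnm1l among the members and for 9.71% of all genes tested.

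Opa1 (chr16:29579334-29654884, plus strand) showed the same separation on a smaller scale. Cardiomyocyte levels of Opa1 were 16.5, 21.6 and 30.1 CPM in Tg+ mice and 23.0, 21.2 and 21.8 CPM in Bag3-WT mice. Its fibroblast levels were 13.2, 13.0 and 12.8 CPM in Tg+ mice and 16.2, 13.4 and 14.7 CPM in Bag3-WT mice. The highest fibroblast value (Bag3-WT mouse 1) was just under the lowest cardiomyocyte value (Tg+ mouse 1). For Opa1 the log2 fold change was 0.67 (SE 0.18, edgeR adjusted p = 0.010), in 6 of 6 mice.

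The other mitofusin, Mfn1 (chr3:32529465-32579239, plus strand), did not separate in CPM with TMM scaling. Mfn1 stood at 15.6, 19.4 and 22.3 CPM in cardiomyocytes of Tg+ mice and at 21.4, 23.1 and 18.8 CPM in those of Bag3-WT mice. Fibroblast preparations had 14.5, 14.3 and 17.4 CPM of Mfn1 in Tg+ mice and 13.5, 14.0 and 14.9 CPM in Bag3-WT mice. The cell types overlapped through the low cardiomyocyte value of Tg+ mouse 1 and the high fibroblast value of Tg+ mouse 3, although each mouse was higher in its cardiomyocytes. The log2 fold change of 0.44 (SE 0.17, 95% interval 0.07 to 0.80) missed the threshold (edgeR adjusted p = 0.054). Without Tg+ mouse 3 it was 0.44 with an edgeR adjusted p of 0.045. Leaving out any other mouse gave adjusted p-values from 0.072 (without Tg+ mouse 1) to 0.16 (without Bag3-WT mouse 2).

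The balance between related members was examined within mice. The ratio of Mfn2 to Mfn1 counts was 3.15 to 4.63 in cardiomyocytes and 2.20 to 3.03 in fibroblasts, ranges that do not overlap. Within mice the log2 ratio was higher in cardiomyocytes by 0.66 ± 0.19 (SD, n = 6 mice, 6 of 6 higher; two-sided exact permutation of signs, p = 0.03125, the smallest that 6 mice allow). Adjusted over the 2 ratios examined this p was 0.0625, which does not pass 0.05. The ratio of the related receptors Bnip3l and Bnip3 was 1.82 to 2.78 in cardiomyocytes and 1.29 to 3.21 in fibroblasts, and its within-mouse log2 difference was −0.18 ± 0.44 (SD, n = 6 mice, exact permutation p = 0.344).

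Of the fission genes, Dnm1l (chr16:16312230-16358959, minus strand) had the wider spread between mice. Dnm1l in cardiomyocytes was 20.8, 27.9 and 67.6 CPM in Tg+ mice and 26.3, 19.3 and 37.5 CPM in Bag3-WT mice. In fibroblast preparations it was 16.8, 15.0 and 17.9 CPM in Tg+ mice and 16.9, 14.0 and 16.7 CPM in Bag3-WT mice. Mouse 3 of each genotype was the highest cardiomyocyte sample of its group, while the fibroblast values stayed close together. The smooth muscle and pericyte markers were also highest in these cardiomyocyte samples, at 1674 CPM in Tg+ mouse 3 and 1334 CPM in Bag3-WT mouse 3 against 259 to 817 CPM in the other 4, and their part was not tested. The log2 fold change between cell types was 0.90 (SE 0.22, edgeR adjusted p = 0.0078), positive in 6 of 6 mice by 0.31 to 1.91 on the log2 scale. Dnm1l shares 243 bases of exon with an antisense gene, Gm49521, and no source used here says whether counting used the strand.

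Fis1 (chr5:136953275-136966234, plus strand) ran the other way in Tg+ mouse 3. Cardiomyocyte levels of Fis1 were 36.7, 33.5 and 24.9 CPM in Tg+ mice and 34.9, 39.8 and 26.3 CPM in Bag3-WT mice, so the 2 mice with the highest Dnm1l had the lowest Fis1. Fibroblast levels were 20.6, 19.9 and 27.5 CPM and 22.7, 24.0 and 17.4 CPM. The cell types overlapped, and 5 of 6 mice were higher in cardiomyocytes. Fis1 passed the test at a log2 fold change of 0.57 (SE 0.18, edgeR adjusted p = 0.024). This call was lost when any mouse other than Tg+ mouse 3 was left out, with adjusted p-values from 0.055 (without Bag3-WT mouse 1) to 0.088 (without Tg+ mouse 1).

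Pink1 (chr4:138313409-138326307, minus strand) had the highest level per length of the members and the smallest estimate of a difference between cell types. It was measured at 94.7, 96.8 and 90.3 CPM in cardiomyocytes of Tg+ mice and at 116, 120 and 79.5 CPM in those of Bag3-WT mice. Fibroblast levels were 82.9, 91.4 and 84.9 CPM and 93.0, 85.6 and 71.2 CPM. These TMM-scaled ranges overlapped widely, with Bag3-WT mouse 3 lowest in both preparations. The log2 difference of 0.22 had a 95% interval from −0.14 to 0.59 (edgeR adjusted p = 0.300), which does not show equal levels.

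The mitophagy receptor genes Bnip3 (chr7:138890836-138909519, minus strand) and Bnip3l (chr14:66985239-67008877, minus strand) both rose. Bnip3 was at 18.3, 19.9 and 29.8 CPM in cardiomyocytes of Tg+ mice and at 12.6, 19.9 and 18.2 CPM in those of Bag3-WT mice. In fibroblast preparations it was at 8.33, 6.43 and 25.4 CPM and at 7.39, 7.32 and 8.68 CPM. The fibroblast value of Tg+ mouse 3 exceeded 5 of the 6 cardiomyocyte values, and the other 5 fibroblast values lay below all cardiomyocyte values. Its log2 fold change was 1.05 (SE 0.21, edgeR adjusted p = 0.0026; 6 of 6 mice). Bnip3 shares 504 bases of exon with the antisense gene Gm45507.

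Bnip3l, the relative of Bnip3, had 44.3, 41.4 and 54.3 CPM in cardiomyocytes of Tg+ mice and 30.3, 39.2 and 50.5 CPM in those of Bag3-WT mice. Fibroblast preparations had 23.2, 20.6 and 32.6 CPM of Bnip3l in Tg+ mice and 22.2, 22 and 21.7 CPM in Bag3-WT mice. Tg+ mouse 3 was again the highest fibroblast sample, above the lowest cardiomyocyte sample (Bag3-WT mouse 1). The log2 fold change was 0.86 (SE 0.17, edgeR adjusted p = 0.0018; 6 of 6 mice). A processed pseudogene, Bnip3l-ps, could share reads with Bnip3l, so its level is uncertain to that extent.

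Fundc1 (chrX:17556564-17572325, minus strand), the receptor linked to low oxygen, was the lowest of the mitophagy receptors per length. Cardiomyocyte levels of Fundc1 were 8.02, 6.62 and 7.70 CPM in Tg+ mice and 8.76, 8.53 and 10.8 CPM in Bag3-WT mice. Its fibroblast levels were 5.58, 4.23 and 7.49 CPM and 6.55, 7.46 and 5.93 CPM. The cell types overlapped in CPM, although all 6 mice were higher in cardiomyocytes, by as little as 0.04 on the log2 scale. The log2 fold change of 0.45 (SE 0.20, 95% interval −0.0020 to 0.90) did not pass (edgeR adjusted p = 0.097). Without Tg+ mouse 3 it was 0.52, with an edgeR adjusted p of 0.045. Leaving out any other mouse gave adjusted p-values from 0.13 (without Bag3-WT mouse 2) to 0.25 (without Bag3-WT mouse 3).

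Ppargc1a (chr5:51454250-51567726, minus strand), the biogenesis coactivator, was close to the limit of detection. It had 1 to 34 counts per mouse in cardiomyocytes and 5 to 22 in fibroblasts. Cardiomyocyte levels were 1.34, 2.28 and 0.137 CPM in Tg+ mice and 2.97, 1.90 and 1.5 CPM in Bag3-WT mice, against fibroblast levels of 0.385, 0.158 and 0.770 CPM and 0.474, 0.397 and 0.223 CPM. Tg+ mouse 3, with 1 count over both cardiomyocyte libraries, was the lowest cardiomyocyte and the highest fibroblast sample. That count is under the 3 counts below which a level is not separated from 0 here. The log2 fold change was 2.07 (SE 0.71, 95% interval 0.51 to 3.62, edgeR adjusted p = 0.034), and leaving out any mouse other than Tg+ mouse 3 ended the call, with values from 1.71 (adjusted p = 0.11, without Tg+ mouse 2) to 2.12 (adjusted p = 0.074, without Tg+ mouse 1).

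Taken within 1 genotype, fewer members passed. In Bag3-WT mice 3 members rose in cardiomyocytes (Mfn2, Bnip3 and Bnip3l; 23.4% of all genes passed in either direction), and in Tg+ mice 2 did (Mfn2 and Bnip3l; 20.0% of all genes). All 10 estimates were above 0 in both genotypes. Mfn2 had a log2 fold change of 1.25 (SE 0.26) in Bag3-WT and 0.95 (SE 0.26) in Tg+ mice, and Bnip3l 0.84 (SE 0.26) and 0.89 (SE 0.26). For the test of whether genotypes differed in these changes, 0 of 10 members passed.

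For some members the direction depended on the scaling between cell types. With library sizes alone, mitochondrial genome counts included, the median of all genes tested moved to −0.95, and calls over all genes went from 2734 higher and 3456 lower to 457 higher and 6616 lower. Then 4 of the 10 estimates stayed above 0 and 0 members passed. Scaled instead to counts outside the mitochondrial genome, without TMM, all 10 members had a higher mean in cardiomyocytes. Per kilobase of exon these means were, for example, 115 against 73.5 for Pink1 and 10.1 against 5.62 for Mfn1. The differences on this scale were not tested. Relative to the median of all genes, all 10 members were above it by 0.26 to 2.11 on the log2 scale with TMM scaling. With library sizes alone this was 0.26 to 2.16. A change of library scaling moves all genes by nearly the same amount, so these ranges had to be alike and are not separate support. With DESeq2 size factors in the edgeR fit, all 10 estimates were above 0. The same held with TMM scaling after the mitochondrial genome genes were left out.

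**Figure D2:**
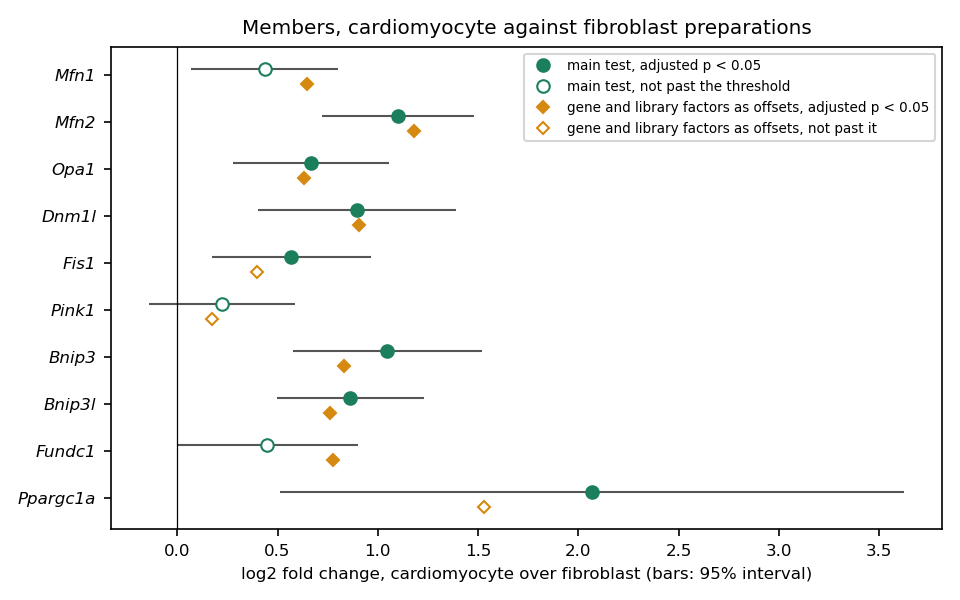
Log2 fold change of each member between cardiomyocyte and fibroblast preparations (6 mice, TMM scaling): circles with 95% intervals for the edgeR test, diamonds for the same test with the gene and library factors of the second deposited table as offsets; filled symbols passed an adjusted p of 0.05. With library sizes alone 6 of these 10 estimates fell below 0.

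The second deposited table made the members differ in another way. Its values are the estimated counts over a factor of their own for each gene and library. Set relative to the median of its library, this factor was nearly even for Pink1 (highest over lowest of 18 libraries 1.10), Bnip3l (1.11) and Fis1 (1.15). It was uneven for Fundc1 (0.35 to 1.5, a span of 4.27) and Mfn1 (0.426 to 1.28, 3.01). Mfn2 spanned 2.48, Bnip3 2.21, Dnm1l 1.84 and Opa1 1.63, and Ppargc1a spanned 2.55 over the 16 libraries in which it had counts. The median span was 1.26 over the 5035 genes with at least 10 counts in all 18 libraries.

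For 6 members (Mfn1, Mfn2, Opa1, Dnm1l, Pink1 and Fundc1) the lowest factor lay in a cardiomyocyte library of Tg+ mouse 3 or Bag3-WT mouse 3. The share of all genes with this pattern was not determined. Over all genes, the 5th percentile of the factor was 0.366 and 0.420 in these libraries of Tg+ mouse 3. It was 0.456 and 0.559 in those of Bag3-WT mouse 3, 0.502 to 0.837 in the other cardiomyocyte libraries and 0.818 to 0.866 in fibroblast libraries. For Opa1, Dnm1l and Fundc1 both libraries of Tg+ mouse 3 were below all other libraries, as for 15.6% of those 5035 genes. The lowest factor of Mfn1 and of Mfn2 was in rep1 of Bag3-WT mouse 3 (0.426 and 0.472), and the factors of both genes in Tg+ mouse 3 were 0.610 to 0.653. A lower factor gives a higher normalized value for the same count. The normalized value of Dnm1l was 589 and 722 in the libraries of Tg+ mouse 3, 330 and 365 in those of Bag3-WT mouse 3, and 129 to 242 in the other 8 cardiomyocyte libraries. In these values the cell types overlapped for Dnm1l, with 149 in fibroblasts of Tg+ mouse 1. They overlapped for Opa1 too, with 119 and 120 in cardiomyocytes of Tg+ mouse 1 against 136 in fibroblasts of Bag3-WT mouse 1. For Mfn2 they stayed apart, the lowest cardiomyocyte value being 359 and the highest fibroblast value 321.

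Used as offsets in the same edgeR fit, an alternative chosen after the data were seen, the factors changed 4 calls and left 7 members called. Over all 13891 genes tested, 5577 were called with the offsets and 6190 without. Mfn1 rose to a log2 fold change of 0.65 (adjusted p = 0.026) and Fundc1 to 0.78 (adjusted p = 0.027). Fis1, at 0.40 (adjusted p = 0.17), and Ppargc1a, at 1.53 (adjusted p = 0.086), no longer passed. Mfn2, Opa1, Dnm1l, Bnip3 and Bnip3l passed either way.

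**Figure D3:**
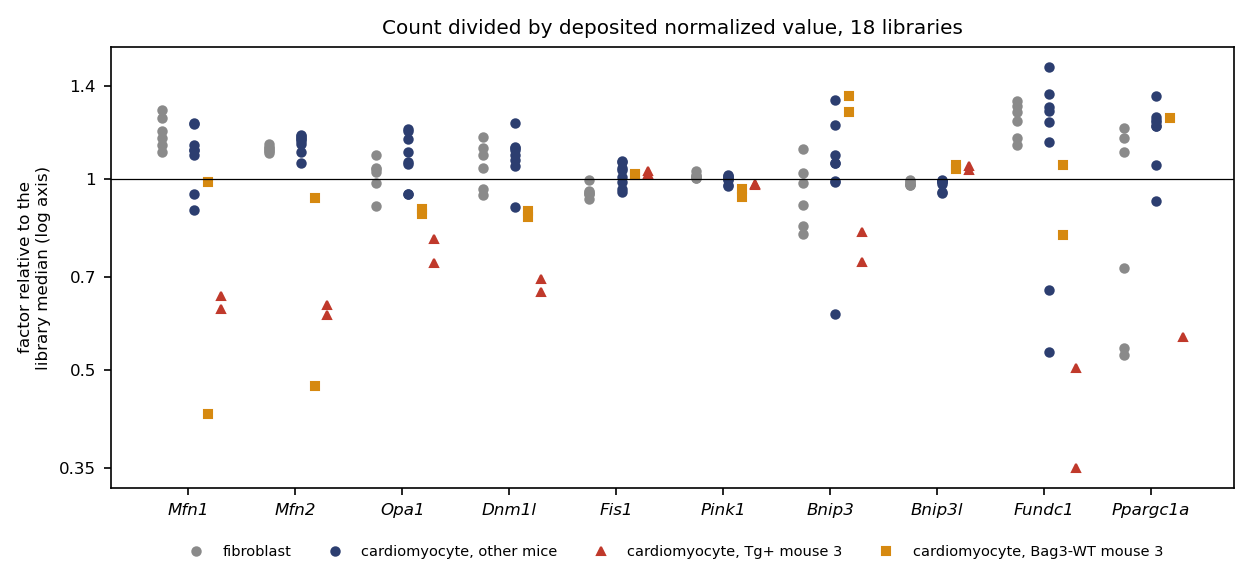
Factor between the deposited count and the deposited normalized value of each member, relative to the median of its library (log axis, 1 is the library median), in 18 libraries; libraries with a count of 0 for Ppargc1a are left out. The libraries of Tg+ mouse 3 (triangles) lie lowest for Opa1, Dnm1l and Fundc1, and those of Bag3-WT mouse 3 (squares) reach 0.426 for Mfn1 and 0.472 for Mfn2, while Pink1, Bnip3l and Fis1 stay near 1.

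Levels of different genes were compared in CPM per kilobase of exon, with the mitochondrial genome left out. In cardiomyocytes (n = 6 mice, mean ± SD) Pink1 was at 115 ± 23.3, followed by Fis1 (59.4 ± 14.6), Mfn2 (45.9 ± 8.71), Bnip3l (34.4 ± 5.69) and Bnip3 (26.7 ± 6.19). Dnm1l (19.0 ± 8.32), Fundc1 (11.0 ± 1.80), Mfn1 (10.1 ± 1.46) and Opa1 (8.65 ± 1.10) came next and Ppargc1a (0.806 ± 0.453) last. Of the neighbours in this order only Pink1 and Fis1, and Opa1 and Ppargc1a, did not overlap over the mice. Fibroblast preparations had the same order, from 73.5 ± 7.04 for Pink1 to 0.144 ± 0.0853 for Ppargc1a, with Fis1 and Mfn2, and Mfn1 and Opa1, also not overlapping. With the longest coding transcript as length in place of all exons, Mfn1 and Fundc1 exchanged places, in both preparations. Pink1 and Fis1 then overlapped in cardiomyocytes (99.7 to 168 against 69.8 to 139). They also overlapped in fibroblast preparations (68.3 to 90.3 against 41.8 to 73.4).

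Beyond the groups, some members varied together from mouse to mouse. Deviations of log2 CPM from the mean of each cell type and genotype were correlated over the 12 columns, which share library and depth and are a description only. Pearson's r was 0.88 for Opa1 and Mfn2, 0.85 for Dnm1l and Opa1, 0.82 for Bnip3l and Bnip3 and 0.80 for Dnm1l and Mfn2. In that order, r was 0.96, 0.87, 0.78 and 0.84 in the cardiomyocyte columns and 0.48, 0.66, 0.98 and 0.77 in the fibroblast columns. The largest deviations of Mfn2, Opa1 and Dnm1l (0.58, 0.45 and 0.99) were those of Tg+ mouse 3 in cardiomyocytes. Fis1 ran opposite to Dnm1l (−0.70), mostly through the cardiomyocyte columns (−0.95 there, 0.06 in fibroblasts). Pink1 was most like Fis1 (0.67), Mfn1 most like Mfn2 (0.72), Fundc1 most like Bnip3l (0.77) and Ppargc1a most like Fis1 (0.74). The largest deviation of Ppargc1a, −1.98 in cardiomyocytes of Tg+ mouse 3, came from 1 count. Correlations without this mouse were not computed.

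With TMM scaling, under which the median of all genes was near 0, other genes of the pathway did not move in 1 direction between the cell types. Of the pathway lists beside the members, 84 genes were tested, of which 24 were higher and 19 lower in cardiomyocytes. Of all 13891 genes tested, 19.7% were higher and 24.9% lower, and the counts of each list below stand beside these shares. Among 13 genes of fusion and inner membrane shaping, 5 rose and 0 fell, with a list median of 0.60 on the log2 scale against −0.04 for all genes. They included Chchd3 (1.61, SE 0.18), Immt (0.65, SE 0.17), both part of the complex that holds crista junctions, the prohibitin Phb2 (1.04, SE 0.22) and the protease Yme1l1 (0.66, SE 0.20), which cleaves OPA1. These 4 had edgeR adjusted p-values of 0.022 or lower.

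Fission factors and motility genes were split, 5 higher and 5 lower of 16, with a median of 0.10. Mff, a receptor for DRP1 on the outer membrane, rose by 0.94 (SE 0.17), and Mtfp1 by 1.54 (SE 0.26). Mul1, an outer membrane ubiquitin ligase, fell by 1.28 on the log2 scale (SE 0.18), and Mtfr2 was at 0.0379 ± 0.0627 CPM in cardiomyocytes against 2.02 ± 0.667 CPM in fibroblasts (SD, n = 6 mice each). All 4 passed the edgeR test.

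Of 16 genes of PINK1-Parkin mitophagy and its adaptors, 3 were higher and 6 lower, with a median of −0.25. Sqstm1, the autophagy adaptor p62, stood at 149 ± 25.4 CPM in cardiomyocytes and 1824 ± 544 CPM in fibroblast preparations (log2 fold change −3.57, SE 0.24). The adaptor Optn (−2.01, SE 0.20) and its kinase Tbk1 (−2.53, SE 0.31) were also lower in cardiomyocytes, while the outer membrane channel Vdac1 was higher (1.35, SE 0.20). The macrophage and myeloid markers, given above, moved in the same direction as the adaptors, and their part was not tested.

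The 16 other mitophagy receptors and phagophore proteins had 5 higher and 2 lower, with a median of −0.00088. Fundc2 (0.88, SE 0.19) and Map1lc3a (0.66, SE 0.18), which encodes an LC3 protein, were higher, and Ulk1, the kinase that starts autophagy (−1.05, SE 0.18), and the receptor Bcl2l13 (−0.74, SE 0.20) were lower. Of 23 biogenesis genes 6 were higher and 6 lower, with a median of 0.10. The 4 with the lowest p were all lower in cardiomyocytes: Ppard (−2.02, SE 0.17), Pprc1 (−1.90, SE 0.20), a relative of Ppargc1a, the deacetylase Sirt1 (−1.60, SE 0.19) and Gabpb1 (−1.56, SE 0.20), a subunit of the nuclear respiratory factor GABP.

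**Figure D4:**
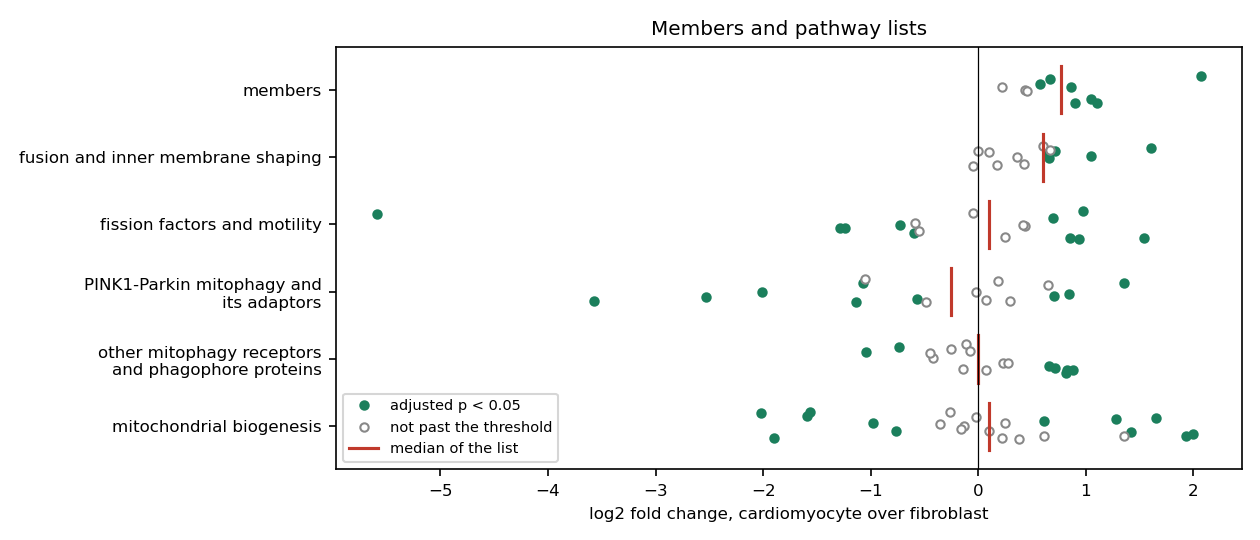
Log2 fold change between cardiomyocyte and fibroblast preparations of the members and of the genes of 5 pathway lists; each point is 1 gene, filled where the adjusted p was below 0.05, and the red line is the median of the list. With TMM scaling the members lie above 0 with a median of 0.77, the fusion list has its median at 0.60, and the other 4 lists spread to both sides with medians between −0.25 and 0.10.

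Genotype was then compared within each cell type, which asks whether the P209L transgene changed these genes. In cardiomyocytes 0 of 10 members passed the edgeR test, as did 0% of the 12439 genes tested. None of the members had an unadjusted p below 0.05, against 89 of all genes. DESeq2 called 3 genes and limma voom 0, with 0 members in either. The members' median log2 fold change, Tg+ over Bag3-WT, was −0.12, against 0.01 for all genes, and 4 of 10 estimates were above 0.

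The cardiomyocyte estimates had wide intervals. The largest increase was that of Dnm1l, 0.47 (95% interval −0.63 to 1.57, edgeR adjusted p = 1.00). Its highest value was that of Tg+ mouse 3, and without that mouse the estimate was −0.18. Bnip3 had 0.41 (−0.34 to 1.17) and Bnip3l 0.22 (−0.48 to 0.91). Mfn2 had −0.25 (−1.04 to 0.54), with Tg+ mice 1 and 2 below and Tg+ mouse 3 above all Bag3-WT values; without Tg+ mouse 3 it was −0.58.

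Fundc1 was the only member whose genotypes did not overlap in CPM in cardiomyocytes, with 6.62 to 8.02 CPM in Tg+ and 8.53 to 10.8 CPM in Bag3-WT mice. All Tg+ values lay below all Bag3-WT values for 2.69% of all genes tested. Its log2 fold change was −0.33 (95% interval −1.07 to 0.41), which did not pass. Fundc1 was also the member with the most uneven factors between the tables. In the normalized values its genotypes overlapped, with 285 in rep1 of Tg+ mouse 3 against 44.7 to 133 in the Bag3-WT cardiomyocyte libraries. Ppargc1a had −0.71 (−2.76 to 1.35), resting on 1 to 34 counts. For Mfn1 (−0.15), Opa1 (0.04), Fis1 (−0.09) and Pink1 (−0.17) the 95% intervals stayed within −0.88 and 0.75.

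In fibroblast preparations 0 of 10 members passed, as did 0% of the 13571 genes tested. None of the members had an unadjusted p below 0.05, against 690 of all genes, and DESeq2 called 6 genes and limma voom 0, again with 0 members. The largest estimate was that of Bnip3, 0.79 (95% interval −0.34 to 1.93, edgeR adjusted p = 0.77). Without Tg+ mouse 3, whose value is given above, the estimate was −0.05. In the same sample the smooth muscle and pericyte markers summed to 660 CPM, against 89.5 to 177 CPM in the other 5 fibroblast samples, and the macrophage and myeloid markers to 2066 CPM, against 3530 to 6453 CPM; their part in the Bnip3 value was not tested.

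Opa1 had all Tg+ fibroblast values (12.8 to 13.2 CPM) below all Bag3-WT values (13.4 to 16.2 CPM), as did 7.76% of all genes tested. In the normalized values the genotypes of Opa1 overlapped, with 121 in fibroblasts of Tg+ mouse 2 and 104 in those of Bag3-WT mouse 2. Its log2 fold change of −0.17 (95% interval −0.49 to 0.16) did not pass. Bnip3l had 0.23 (−0.23 to 0.69) and 0.03 without Tg+ mouse 3. Fundc1 had −0.19 (−0.76 to 0.37), and Ppargc1a 0.25 (−1.20 to 1.71) on 5 to 22 counts. The intervals of Mfn1 (0.14), Mfn2 (0.02), Dnm1l (0.08), Fis1 (0.10) and Pink1 (0.07) stayed within −0.39 and 0.56, narrower than in cardiomyocytes.

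**Figure D5:**
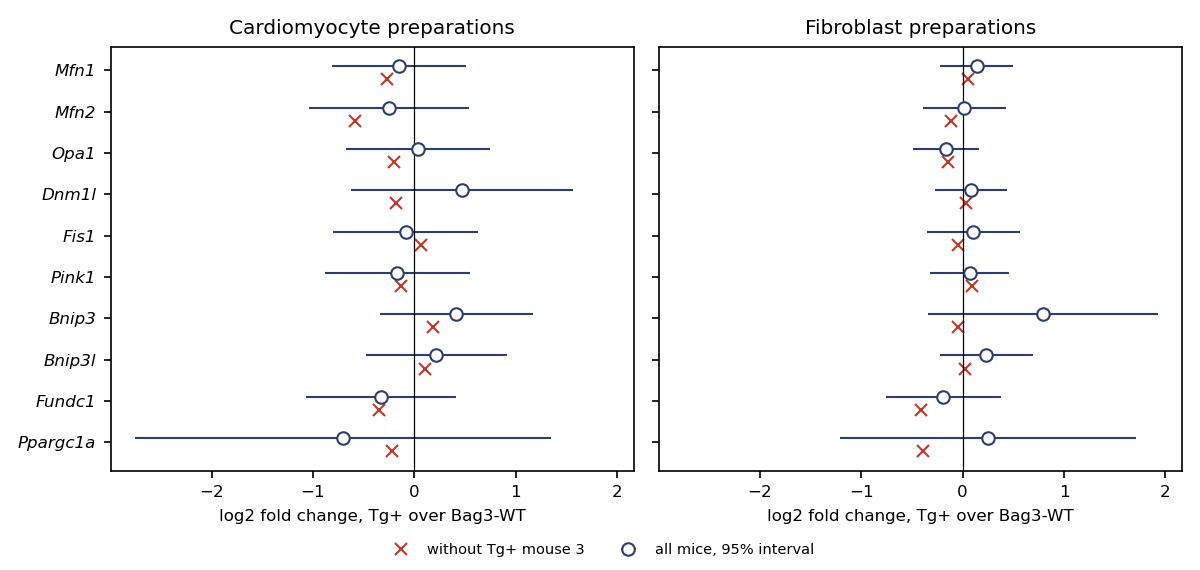
Log2 fold change of each member between Tg+ and Bag3-WT mice (3 against 3) in cardiomyocyte and in fibroblast preparations, with 95% intervals of the edgeR fit; crosses give the estimate without Tg+ mouse 3. Every interval includes 0, and leaving out Tg+ mouse 3 takes Dnm1l in cardiomyocytes from 0.47 to −0.18 and Bnip3 in fibroblasts from 0.79 to −0.05.

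The genotype effect was also tested for a difference between the cell types in 1 fit over all 12 columns. Here 0 of 10 members passed, as did 0% of the 13891 genes tested. None of the members and 124 of all genes had an unadjusted p below 0.05, and DESeq2 called 1 gene and limma voom 0. Estimates of the difference ran from −1.05 for Ppargc1a (95% interval −4.32 to 2.21) to 0.28 for Dnm1l (−0.77 to 1.33). For Mfn2 it was −0.29 (−1.11 to 0.52) and for Bnip3 −0.10 (−1.11 to 0.92).

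The wider pathway gave the same counts for genotype. Of the listed genes beside the members, 0 of 82 tested passed in cardiomyocytes, 0 of 81 in fibroblasts and 0 of 84 in the test of the difference. The gene with the lowest p in cardiomyocytes was Tbk1, at 2.27-fold (log2 SE 0.46, edgeR adjusted p = 1.00), which also had the lowest p for the difference between cell types, 1.48 (SE 0.40, adjusted p = 1). In fibroblasts it was Sirt1, at 0.32 (SE 0.14, edgeR adjusted p = 0.77).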

How the data were processed

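Per the labels' protocols, RNA of isolated heart cells was captured on oligo(dT) beads and sequenced on Illumina instruments. Cardiomyocyte samples had a further round of sequencing, and no source used here says if these are rep1 and rep2. The authors deposited a first table of estimated counts per gene, of which 44.7% of values are not whole. Tools named in the submitters' processing notes, without roles, are R 3.4.4, kallisto 0.44.0 and DESeq2 1.18.1, with the build GRCm38.p6. The second deposited table holds a normalized signal per gene, the count divided by a gene and library factor, as read from the values.

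Expected counts of rep1 and rep2 were summed per mouse and rounded, giving 12 columns. Genotype was tested within each cell type (3 against 3 mice), cell type within 6 mice with the mouse as block, and their interaction, with edgeR 4.0.16 in R 4.3.3 (filterByExpr, TMM, robust glmQLFit and glmQLFTest, two-sided, adjusted p < 0.05 over all genes tested). SE is the absolute log2 fold change over the square root of F. The mouse pairing comes from the animal code in the labels. Nothing says that samples beyond the mouse are independent, so p-values measure the spread between these mice. CPM values are TMM-scaled over 12 columns. Gene models were those of GENCODE M21. Alternatives used DESeq2 1.42.0 and limma 3.58.1, library sizes alone, other filters and left-out mice. The test scripts were run on simulated data. The members, lists, markers and tests were chosen with earlier results of these data known. All members and, per list and comparison, up to 4 genes with the lowest p among those passing were named, or else the 1 with the lowest p over all lists.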

Additional observations from a re-analysis of the deposited data

How the results depend on the processing

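Ppargc1a rests on 1 to 34 counts in a cardiomyocyte sample, and its genotype interval there was the widest of the members. The genotype intervals of all members in cardiomyocytes allow changes of either sign. For cell type, DESeq2 and limma voom called 8 members each, against 7, and scaling by library size alone called 0. Of the 13891 genes tested, DESeq2 called 6977, limma voom 6874 and library size alone 7073, against 6190 in the main test. Leaving out 1 mouse gave 5 to 9 members for cell type (9 without Tg+ mouse 3) and rep1 libraries alone gave 5. Calls over all genes then ran from 5038 of 14226 (without Bag3-WT mouse 3) to 6821 of 14123 (without Tg+ mouse 3). With rep1 libraries alone they were 5311 of 13351. For genotype, in each cell type and for the difference, 0 members passed under every alternative run. The causes of the changes below were not tested.

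The following estimates changed sign (log2). With library size alone, cell type gave Mfn1 −0.47, Opa1 −0.23, Fis1 −0.34, Pink1 −0.69, Bnip3l −0.043 and Fundc1 −0.45, of which Opa1, Fis1 and Bnip3l had passed above 0 with TMM scaling. Under the same setting, genotype in cardiomyocytes gave Mfn1 0.64, Mfn2 0.48, Fis1 0.88, Pink1 0.75, Fundc1 0.49 and Ppargc1a 0.28, and genotype in fibroblasts gave Opa1 0.20 and Fundc1 0.11. The difference between cell types then was 0.028 for Mfn1, 0.0043 for Mfn2, 0.13 for Fis1, 0.10 for Pink1, 0.22 for Bnip3 and 0.21 for Fundc1. With the deposited normalized table in limma, genotype gave Fis1 0.13 in cardiomyocytes, and Mfn2 −0.024, Dnm1l −0.015 and Ppargc1a −0.70 in fibroblasts, and the difference was 0.023 for Fis1 and 0.091 for Fundc1. With the factors as offsets, genotype gave Mfn2 0.024 in cardiomyocytes, and Mfn2 −0.022, Dnm1l −0.0067 and Ppargc1a −0.76 in fibroblasts, and the difference was 0.020 for Bnip3 and 0.10 for Ppargc1a. With the letter F or M of the animal code as covariate, fibroblasts gave Mfn2 −0.069 and Ppargc1a −0.22. With rep1 libraries alone, cardiomyocytes gave Fis1 0.24 and Fundc1 0.089, and the difference was −0.053 for Dnm1l, 0.20 for Fis1, 0.36 for Fundc1 and 0.99 for Ppargc1a. Opa1 in cardiomyocytes was −0.0083 with limma voom and −0.022 with rep2 libraries alone.

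The repeat number did not pair the mice: libraries with the same number in the other genotype deviated with a mean correlation of 0.0142 (−0.48 to 0.44 over 18 pairs). With a replicate block, 0 members passed for genotype in cardiomyocytes, as without it, and Opa1 was −0.016.

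Leaving out each mouse in turn, genotype estimates that changed sign ran in cardiomyocytes from −0.18 to 0.78 for Dnm1l, −0.25 to 0.068 for Fis1 and −0.20 to 0.24 for Opa1. In fibroblasts they ran from −0.050 to 1.12 for Bnip3, −0.049 to 0.21 for Fis1, −0.11 to 0.11 for Mfn2, −0.019 to 0.15 for Pink1 and −0.39 to 0.65 for Ppargc1a. The difference between cell types ran from −0.41 to 0.29 for Bnip3, −0.14 to 0.25 for Bnip3l, −0.16 to 0.67 for Dnm1l, −0.32 to 0.15 for Fis1, −0.23 to 0.10 for Fundc1, −0.049 to 0.42 for Opa1 and −2.37 to 0.20 for Ppargc1a. Leaving out Tg+ mouse 3 changed the sign of every estimate in this paragraph except Pink1 in fibroblasts and Bnip3l in the difference.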

Other observations

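Genes known to respond to low oxygen, as Bnip3 does, were looked up after the high Bnip3 value in the fibroblast preparation of Tg+ mouse 3 had been seen. Of 12 such genes, 5 (Pdk1, Adm, Egln3, Ankrd37 and P4ha1) had their highest fibroblast value in that sample, as did 28.0% of the 13571 genes tested. P4ha1, a collagen prolyl hydroxylase, was at 79.4 CPM there, and the next highest sample had 67.5 CPM. Vegfa, the vascular growth factor, was at 53.0 CPM, lower than in the other 5 samples (88.4 to 129 CPM). Slc2a1, a glucose transporter, was at 44.3 CPM, within the range of the others.

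Repeat libraries of a mouse differed by unequal amounts between members. In CPM with the mitochondrial genome left out, the log2 ratio of rep1 to rep2 ran from −0.10 to 0.05 for Mfn2 and from −0.04 to 0.24 for Bnip3l over the 6 mice. It ran from −0.69 to 1.08 for Fundc1, from −0.37 to 0.94 for Fis1 and from −2.93 to −0.30 for Ppargc1a (4 mice with counts in both).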
